A study of Mus musculus with 2 samples.

Results

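The genes described here are 35 interferon-stimulated genes, a list of well-known antiviral effectors, sensors and regulators looked up by symbol in the GENCODE M21 annotation. All 35 were found, out of 21827 protein-coding genes measured in the series. Of the members, 34 are annotated as protein-coding and Mx2 as a polymorphic pseudogene, so Mx2 was added to the table. The list is not defined by any measured value of these libraries, but it was chosen with earlier results of these data known.

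The data were DNase-seq maps of 2 libraries of resting CD8-positive naive T cells with the alpha-beta receptor, which become cytotoxic T cells once they meet antigen. They came from virgin male B6CASTF1/J mice of 2 months, an F1 cross, with no treatment, allele or second condition named. DNase I cuts accessible DNA, and a peak is a stretch where the authors called an excess of cuts. The labels number the libraries replicates 2 and 3, with separate biosample labels and 1 shared donor label, and no label used here says whether the animals were separate. No interferon-treated sample was analysed, and the values below are those of the resting state.

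Type I and type III interferons bind their receptors on the cell surface and activate the kinases Jak1 and Tyk2. The kinases set off the assembly of a transcription factor complex, ISGF3, which includes Stat2 and Irf9. ISGF3 binds the interferon-stimulated response element (ISRE) in the promoters of target genes, and interferon gamma acts mainly through a different element called GAS. Many of these genes are kept at a low level in unstimulated cells and are induced within hours of exposure.

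Stretches of DNA directly upstream of the start sites held many of the ISRE matches described below. The 6 sequences below, picked from 10 such stretches to cover several roles, single and repeated elements and both kinds of call, each lie upstream of the start site inside a called promoter peak and hold at least 1 ISRE core. They leave out any exon and run to at most 160 bases, so the peaks of Rsad2, Bst2 and Rtp4 reach further upstream than the letters shown. They are from the C57BL/6 reference of GRCm38 (mm10), 5′ to 3′ on the strand of the gene, and do not show the other parental allele. Capitals mark matches to the ISRE core, which is GAAA-NN-GAAA with any base at each N, on either strand, so a match on the opposite strand reads TTTC-NN-TTTC. Neighbouring matches can overlap and then form 1 run of capitals.
Isg15, chr4:156200819-156200934, minus strand: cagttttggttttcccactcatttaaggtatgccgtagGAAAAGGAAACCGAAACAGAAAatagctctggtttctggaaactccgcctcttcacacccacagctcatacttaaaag
Ifit1, chr19:34640790-34640861, plus strand: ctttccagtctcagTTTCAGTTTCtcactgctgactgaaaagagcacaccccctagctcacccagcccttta
Rsad2, chr12:26456453-26456612, minus strand: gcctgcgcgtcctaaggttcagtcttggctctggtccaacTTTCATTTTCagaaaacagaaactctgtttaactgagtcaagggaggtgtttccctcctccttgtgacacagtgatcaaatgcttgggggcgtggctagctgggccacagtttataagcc
Bst2, chr8:71537457-71537616, minus strand: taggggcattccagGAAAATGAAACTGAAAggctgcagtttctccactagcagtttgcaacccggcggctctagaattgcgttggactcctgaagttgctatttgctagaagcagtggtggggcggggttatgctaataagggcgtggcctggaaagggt
Usp18, chr6:121245761-121245905, plus strand: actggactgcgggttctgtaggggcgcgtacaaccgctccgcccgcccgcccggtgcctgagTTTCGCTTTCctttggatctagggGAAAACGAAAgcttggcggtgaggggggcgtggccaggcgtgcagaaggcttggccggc
Rtp4, chr16:23609759-23609918, plus strand: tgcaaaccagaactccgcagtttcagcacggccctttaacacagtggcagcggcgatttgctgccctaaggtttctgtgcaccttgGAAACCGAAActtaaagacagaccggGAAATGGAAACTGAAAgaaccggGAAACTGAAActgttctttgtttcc

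For contrast, the 50 bases around an ISRE core are given for 2 members whose promoters had no called peak in either library, Ifit3 and Oas2. The letters of the core were present there too, with the ISRE at -120 of Ifit3 reading the same as that of Ifit1 above.
Ifit3, chr19:34583387-34583436, plus strand: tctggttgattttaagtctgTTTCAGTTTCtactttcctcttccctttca
Oas2, chr5:120749895-120749944, minus strand: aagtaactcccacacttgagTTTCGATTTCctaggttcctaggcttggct

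The libraries differed in the number of peaks. The authors' stricter list, in which every peak reaches a false discovery rate of 0.001 or lower, had 38223 peaks in replicate 2 and 17061 in replicate 3. Their permissive list, which goes up to 0.05, had 53597 and 24844. Low signal values (under 2) moved in whole steps in each library, and if 1 step is 1 tag, replicate 2 was 6.05 times as deep as replicate 3. A missing peak does not show a closed site. Of T cell markers, 4 of 5 measured had a stricter promoter peak in replicate 2 (all but Cd8a) and 1 of 5 in replicate 3. Of naive T cell markers, 3 of 5 had one in replicate 2 and none in replicate 3, and Ccr7, at 6.54 in replicate 2, had no promoter peak in either list of replicate 3. Promoters of the 2 helper, 4 B cell, 2 NK and 3 erythroid markers had none in either library, and of 4 myeloid markers only Itgam had one (0.657, replicate 2). Replicate 3 thus had peaks at few marker promoters of its label, and each result below is given for each library.

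Most of these genes had a called promoter peak in replicate 2, the library with more peaks, with low signal among called promoters. A promoter is the window of 1000 bp either side of an annotated start site. In replicate 2, 27 of 35 members had a stricter promoter peak, against 50.5% of all protein-coding genes. In both libraries 11 of 35 did, against 40.9%, and 16 members had one in replicate 2 alone, against 9.63%. No member had one in replicate 3 alone, where the background was 0.0321%. For 8 members neither library had one, against 49.5%. A stricter peak lay over a start site itself in 20 members in replicate 2, against 39.9%, and in 7 in replicate 3, against 31.6%. The share of members called in replicate 2 was thus above the background and the share called in both was below it.

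Among called promoters the members sat low in the range of signal. The signal is the authors' value for a peak, in a scaling the labels do not state, and the strongest promoter peak stands for each gene. In replicate 2 the 27 called members had a median of 1.34 (lowest 0.485, highest 4.16), against 3.75 over all genes with a promoter peak. In replicate 3 the 11 called members had a median of 2.89 (1.40 to 4.56), against 4.65. The median member lay at percentile 16.6 of called promoters in replicate 2 and 21.7 in replicate 3, and the highest, Adar and Gbp3, at 55.1 and 48.8. These values amount to 65 to 557 steps in replicate 2 and 31 to 101 in replicate 3.

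**Figure D1:**
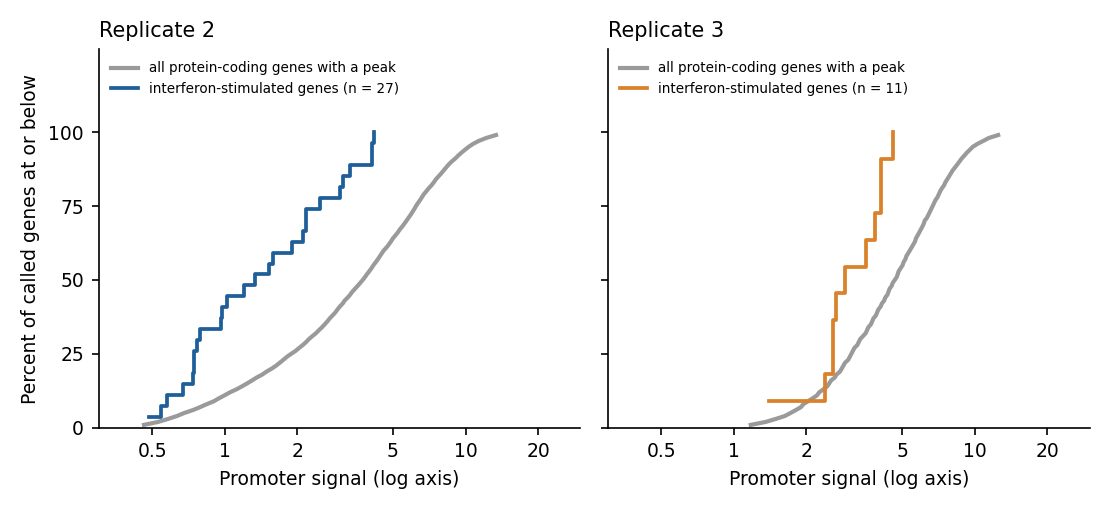
Cumulative percent of genes (y) at or below a given promoter signal (x, log axis, the authors' scale) in replicate 2 (left) and replicate 3 (right), for all protein-coding genes with a stricter promoter peak (grey) and for the interferon-stimulated genes with one (coloured, 27 and 11 genes). Nearly the whole coloured curves lie left of the grey ones, with medians of 1.34 against 3.75 and 2.89 against 4.65.

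The sensors of foreign nucleic acid came in 3 states. Ifih1, which encodes the long double-stranded RNA sensor MDA5, had a promoter peak of 2.12 in replicate 2 and 2.89 in replicate 3. Ddx58, which encodes the viral RNA sensor RIG-I, had one of 1.34 in replicate 2 alone, centred 648 bp downstream of the start. Zbp1, a sensor of Z-form nucleic acids that can trigger cell death, had one of 1.02 in replicate 2 alone. Dhx58, which encodes the RIG-I-related regulator LGP2, had no promoter peak in either list of either library. The permissive list of replicate 3 held the Ddx58 peak at 1.17, so Ddx58 and Ifih1 were found in both libraries at that threshold and Zbp1 was not.

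Of the 7 enzymes that act on or are switched on by double-stranded RNA, 1 had a promoter peak in both libraries. Adar, which edits adenosine to inosine in double-stranded RNA, had the highest promoter signal of all members in replicate 2, with 4.16, and 3.84 in replicate 3. That peak lies at the downstream of its annotated start sites. At the upstream start, weaker peaks stood at 1.66 in replicate 2 and 2.35 in replicate 3, with another of 0.731 in replicate 2 alone. Adar thus had open chromatin at both ends of its set of promoters, stronger downstream in both libraries.

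Eif2ak2, which encodes the kinase PKR that halts translation, had a promoter signal of 0.768 in replicate 2 alone. The oligoadenylate synthetase-like genes Oasl1 (0.746) and Oasl2 (0.485) were also called in replicate 2 alone. Oasl2 was the weakest called member. The oligoadenylate synthetases Oas1a, Oas2 and Oas3, whose product activates RNase L, had no stricter promoter peak in either library. Oas3 had a permissive peak of 0.582 in replicate 2, while Oas1a and Oas2 had none in either list.

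The 3 IFIT genes, neighbours on chromosome 19 whose proteins bind RNA or one another to block viral translation, differed from one another. Ifit2 had a promoter peak in both libraries (1.53 and 1.40). Ifit1 had one in replicate 2 alone (0.791), and Ifit3 had none in either list. Nor did Ifit3 have any stricter region within 10 kb of its gene body. The 3 genes thus each fell in a different class of calls.

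The ubiquitin-like modifier Isg15 had a weak promoter peak of 0.739 in replicate 2 alone, at percentile 5.99 of called promoters. Usp18, the protease that removes ISG15 and also damps signalling at the type I receptor, had 3.11 in replicate 2 and 3.52 in replicate 3. The promoter of the negative regulator therefore had a signal several times that of its substrate's in replicate 2. In replicate 3 only Usp18 was called, and Isg15 was absent from the permissive list too.

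Among the virus-blocking effectors, Samd9l, a restriction factor that acts on translation, had 3.01 in replicate 2 and 2.67 in replicate 3. Rsad2, which encodes viperin, an enzyme that makes a chain-terminating nucleotide, had 2.48 and 2.39. These were the 2 of 6 with a peak in both libraries. Bst2 (tetherin, which holds budding virions at the membrane) had 1.90, the exonuclease gene Isg20 had 0.977 and the dynamin-like GTPase gene Mx2 had 0.671, all in replicate 2 alone. Its relative Mx1 had no peak in either list, although replicate 3 listed a promoter position with a false discovery rate of 0.0434. A rate of 0.001 or lower was reached in the promoters of 27 members in replicate 2, against 51% of all genes, and of 13 in replicate 3, against 41.8%. Bst2 was the strongest of the members called in replicate 2 alone.

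The interferon-induced GTPases attack or regulate the vacuoles around intracellular pathogens. Gbp3, a guanylate-binding protein gene, had 3.31 in replicate 2 and 4.56 in replicate 3, the highest member value of that library. The peak, chr3:142560721-142560920, was centred 409 bp downstream of the nearest of its 3 annotated starts. It lay further from the main start, at chr3:142560052. Igtp had 2.18 and 2.57. Irgm2 has an annotated start site beside that of Igtp and shares its peak. At the other start of Irgm2 a stricter peak was called in replicate 2 alone (1.88), with a permissive peak of 2.48 in replicate 3.

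Irgm1 (1.59) and Gbp2 (0.574) were called in replicate 2 alone, and Ifi47 in neither, with a permissive peak of 0.686 in replicate 2. In the ADP-ribosylation group, Parp9 and its partner, the ubiquitin ligase gene Dtx3l, are transcribed in opposite directions from neighbouring starts and share their promoter peaks. The strongest had 4.10 in replicate 2 and 4.07 in replicate 3. It was centred at -749 from the Dtx3l start and 889 bp downstream of the nearest Parp9 start. Another, centred at -41 from a Parp9 start, had 1.67 and 1.72. Parp14, a mono-ADP-ribosyltransferase gene, had 0.970 in replicate 2 alone. With Parp9 and Dtx3l counted once and Irgm2 counted by its own start sites, the number of member promoters called in both libraries was 9 in place of 11.

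Of the remaining members, Ifi35 (1.20), the receptor transporter gene Rtp4 (0.746) and Xaf1, which encodes an antagonist of an inhibitor of apoptosis (0.545), were called in replicate 2 alone. Ifi44 had no peak in either list of either library. By role, the share called in both libraries ran from 0 of 4 of these remaining genes and 1 of 7 double-stranded RNA enzymes to 3 of 6 GTPases and 2 of 3 of the ADP-ribosylation group. These are counts over few genes, some of which share peaks.

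**Figure D2:**
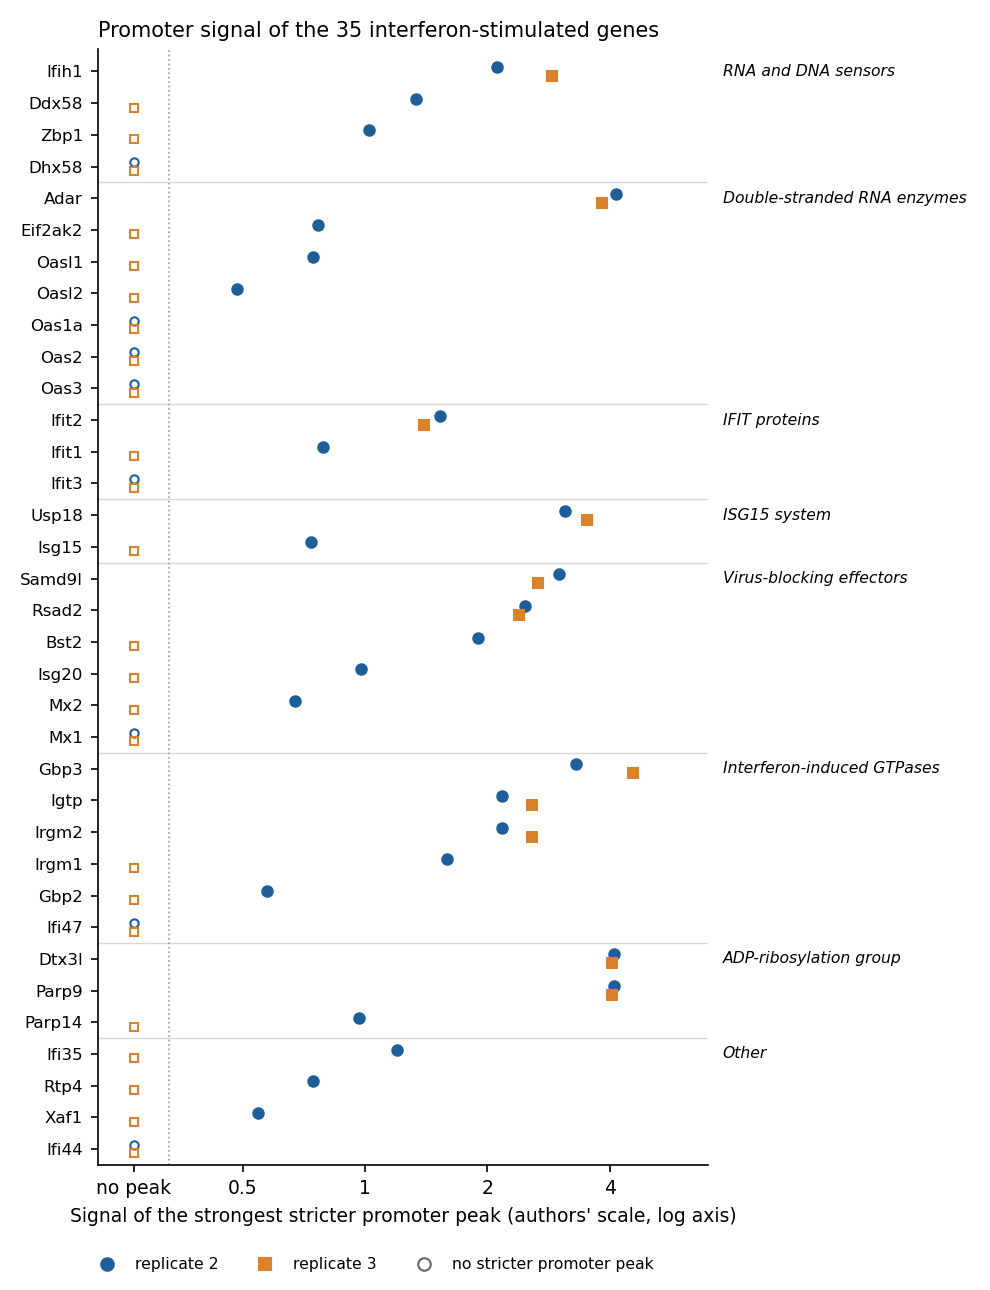
Signal of the strongest stricter promoter peak (x, log axis, the authors' scale) of each of the 35 members (y, grouped by role), in replicate 2 (circles) and replicate 3 (squares). Open symbols at the left mark libraries with no stricter promoter peak; 8 genes have open symbols only, 16 have a filled circle and an open square, and Irgm2 is plotted at the peak it shares with Igtp.

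Signal in replicate 2 went with whether replicate 3 called the gene. All 10 members with a replicate 2 signal of 2 or more (4 of 4 from 2 to 3 and 6 of 6 from 3 to 5) were called in replicate 3, where 85.8% and 97.1% of all genes in those ranges were. Among the 10, Parp9 and Dtx3l are counted by a shared peak, as are Igtp and Irgm2. The other start of Irgm2, at 1.88 in replicate 2, had no stricter peak in replicate 3. From 1 to 2, 1 of 6 was called, Ifit2, against 56.4%. Below 1, none of 11 was called (1 below 0.5 and 10 from 0.5 to 1), against 2.27% and 15.9%. In the stricter list of replicate 3, 5% of peaks had a signal under 1.17, and 12 of the 16 members called in replicate 2 alone were below that value in replicate 2 (75.0%, against 60.3% of all 2102 genes of that class).

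Of these 16 members, 5 had a permissive promoter peak in replicate 3 (31.3%, against 44.8% of the class). They were Oasl1 (1.85, in a peak that reached the edge of the promoter window, with 1.17 over the start), Ddx58 (1.17), Parp14 (0.949), Rtp4 (0.723) and Xaf1 (0.678). With the permissive lists, 16 members had a promoter peak in both libraries (45.7%, against 45.5% of all genes), and 6 had none in either (17.1%, against 45.6%). The 6 were Ifit3, Oas1a, Oas2, Mx1, Ifi44 and Dhx58. The part of depth or of sample make-up in the difference between the libraries was not tested.

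**Figure D3:**
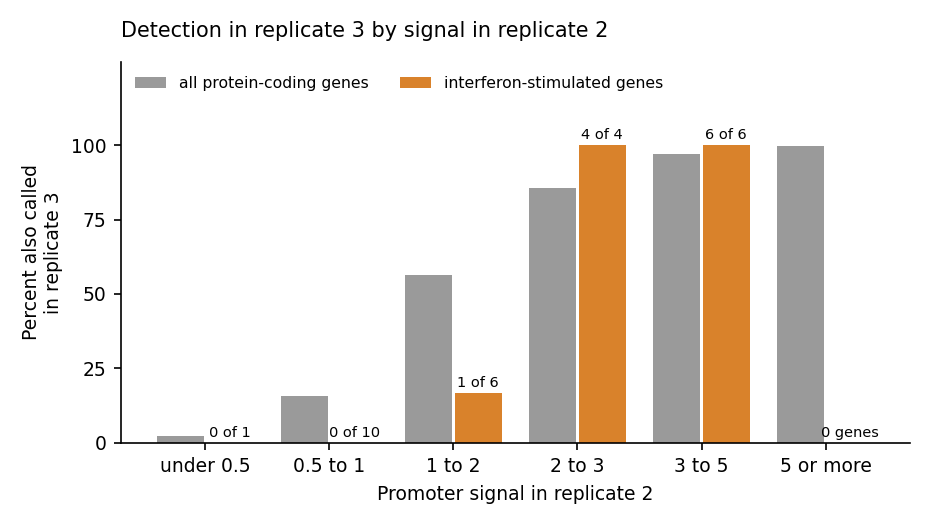
Percent of genes called at the promoter in replicate 2 that were also called in replicate 3 (y, stricter lists), by promoter signal in replicate 2 (x), for all protein-coding genes (grey) and the members (orange, with counts above the bars). All 10 members from 2 upwards, some of which share peaks, were called in replicate 3 and 1 of 17 members below 2; no member reached 5.

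The promoters of these genes were poor in CpG. Over the 2001 bp around the main start site, the observed over expected CpG ratio had a median of 0.224 in the members and 0.481 over all genes. Promoters were ranked by this ratio and split into 5 equal classes (quintiles 1 to 5). All 35 members fell in quintiles 1, 2 and 3, with 8, 18 and 9 genes. Promoter peaks are known to go with CpG content, and in replicate 2 only 5.29% of all genes in quintile 1 had one. In that quintile 6 of 8 members were called in replicate 2 (Ifit1, Mx2, Rsad2, Xaf1, Samd9l and Gbp2). In quintile 2, 12 of 18 were called, against 20.96%, and in quintile 3, 9 of 9, against 61.5%.

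At like CpG content of the main start site, the members' share called in replicate 2 was thus above the background in each of the 3 quintiles. Peaks were counted at any annotated start of a gene, for members and all genes alike, so CpG and peak can belong to different starts. Irgm2, for instance, is counted in both libraries by the peak it shares with Igtp. For peaks in both libraries, the counts were 2 of 8 against 2.29% (Rsad2 and Samd9l), 5 of 18 against 10.7%, and 4 of 9 against 47.2%. The members' median signal among genes called in replicate 2, in that library, was below that of all genes in every quintile that held members: 0.731 against 1.42, 1.11 against 1.67 and 1.90 against 2.95.

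**Figure D4:**
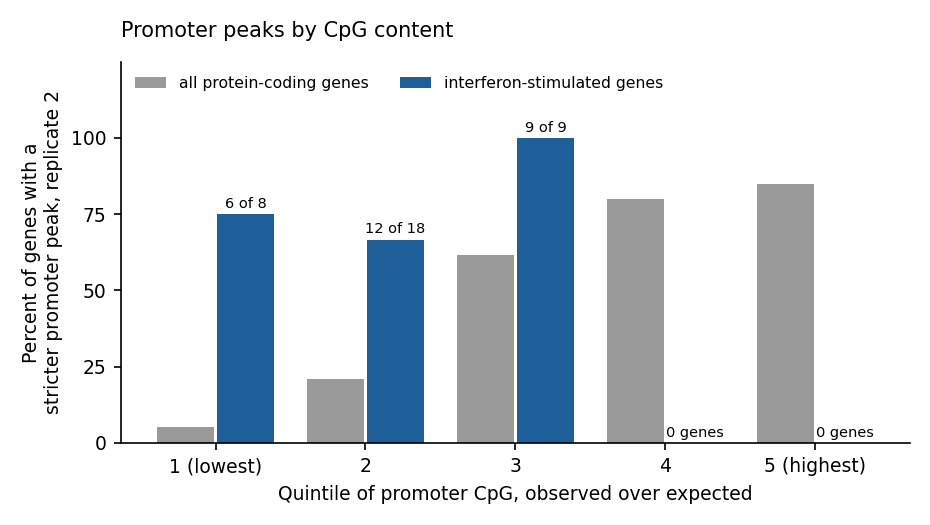
Percent of genes with a stricter promoter peak in replicate 2 (y) by quintile of promoter CpG observed over expected (x), for all protein-coding genes (grey) and the members (blue, with counts above the bars). The members reach 75.0%, 66.7% and 100% in quintiles 1, 2 and 3, where all genes reach 5.29%, 20.96% and 61.5%; quintiles 4 and 5 hold no member.

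The ISRE core was frequent in these promoters. It was present in the window of 1000 bp either side of the main start in 29 of 35 members, against 22.7% of all genes. From 250 bp upstream to 50 bp downstream it was present in 21 of 35, against 3.60%. The 51 matches ran from -935 to +601, and 32 of them (62.7%) lay within 200 bp upstream of the start, against 9.18% of the 6277 matches of all genes. They lay at 50 distinct positions, since Parp9 and Dtx3l share a match that is counted for each gene. Rtp4 had 5 matches, Zbp1 4, and Isg15, Oas1a and Gbp3 had 3 each. The members with no match were Ifit2, Samd9l, Adar, Ifi35, Xaf1 and Ifi44.

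Presence of the ISRE did not sort the members by whether they had a peak. A match was present in 8 of the 11 called in both libraries, 14 of the 16 called in replicate 2 alone and 7 of the 8 called in neither. Of the 21 members with a match near the start, 15 (71.4%) had a promoter peak in replicate 2, and of the 14 without, 12 (85.7%) did. Over all genes these shares were 42.7% of 785 and 50.8% of 21042. The 3 members called in both libraries without the core were Adar and Samd9l, with 4.16 and 3.01 in replicate 2, and Ifit2, with 1.53.

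Other motifs were closer to the background or below it. The GAS letters TTCNNNGAA were present in 19 members (54.3%, against 45.1%) and the TATA box letters TATAAA in 18 (51.4%, against 58.9%). The GC-rich SP and KLF motif GGGCGG was present in 22 (62.9%, against 66.8%). The ETS motif CCGGAAG was present in 5 (14.3%, against 24.7%) and the NRF1 motif GCGC-NN-GCGC in none (against 16.1%). Both strands were searched in the same window, and a match is a string of letters, not a measured binding site.

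The peaks of replicate 2 covered many of the ISRE matches. Of the 51, 25 (49.0%) lay wholly in a stricter peak of replicate 2, in 14 genes, against 5.78% of all matches. Within 200 bp upstream of a start, 21 of 32 did (65.6%), against 23.8% of 576. In replicate 3, 6 of 51 lay in a stricter peak (11.8%, against 2.68%), and within 200 bp upstream 4 of 32 did (12.5%, against 11.3%). The last share was near its background. The match shared by Parp9 and Dtx3l lay in stricter peaks of both libraries and is counted for each gene in these counts and in the footprint counts of replicate 2. Among members with more than 1 match, all those of Isg15, Bst2, Usp18, Zbp1 and Irgm1 lay in peaks of replicate 2, and both of Usp18 lay in peaks of replicate 3 as well.

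Some peaks missed the element. The Gbp3 peak, among the strongest, stood downstream of its matches at -49 and -43 from the main start. Another match, at +487 from the main start, was outside it too. The Ifih1 match straddled the edge of its peak. The Ddx58 and Parp14 matches lay outside the stricter peaks and inside permissive ones of replicate 2. None of the 11 matches in the 7 members that had an ISRE and no stricter promoter peak lay in a permissive peak of either library.

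Footprints, short stretches of protection inside cut chromatin, touched a share of the matches. In replicate 2, 14 of the 51 overlapped a footprint (27.5%, against 2.53% of all matches). Of the 25 in stricter peaks 11 did (44.0%, against 35.8% of all matches in stricter peaks). In replicate 3, 1 of 6 did, that of Igtp (16.7%, against 16.1%). All overlaps but 1 covered only part of the element. The exception was a footprint of 17 bp in Rtp4, from -55 to -39, which covered all 10 bases of 1 match and ended in the next. In Bst2 a footprint of 10 bp from -142 to -133 covered 8 and 6 bases of its overlapping matches.

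In Ifit1 a footprint of 17 bp from -82 to -66 lay between its 2 matches and reached 6 and 2 bases into them. In Rsad2 a footprint of 24 bp from -140 to -117 reached 4 bases into the match, the run printed above in capitals. Usp18, with 2 matches in peaks of both libraries, had no footprint over either, and neither had Isg15 or Zbp1. In Oas3 a footprint of 8 bp overlapped the match although no stricter peak was called there. A footprint in the promoter window was present in 28 members in replicate 2, against 52.8%, and in 10 in replicate 3, against 38.3%. Replicate 2 had 146244 footprints in all and replicate 3 had 29967. Footprint number moves with depth, so these counts are not compared between the libraries.

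**Figure D5:**
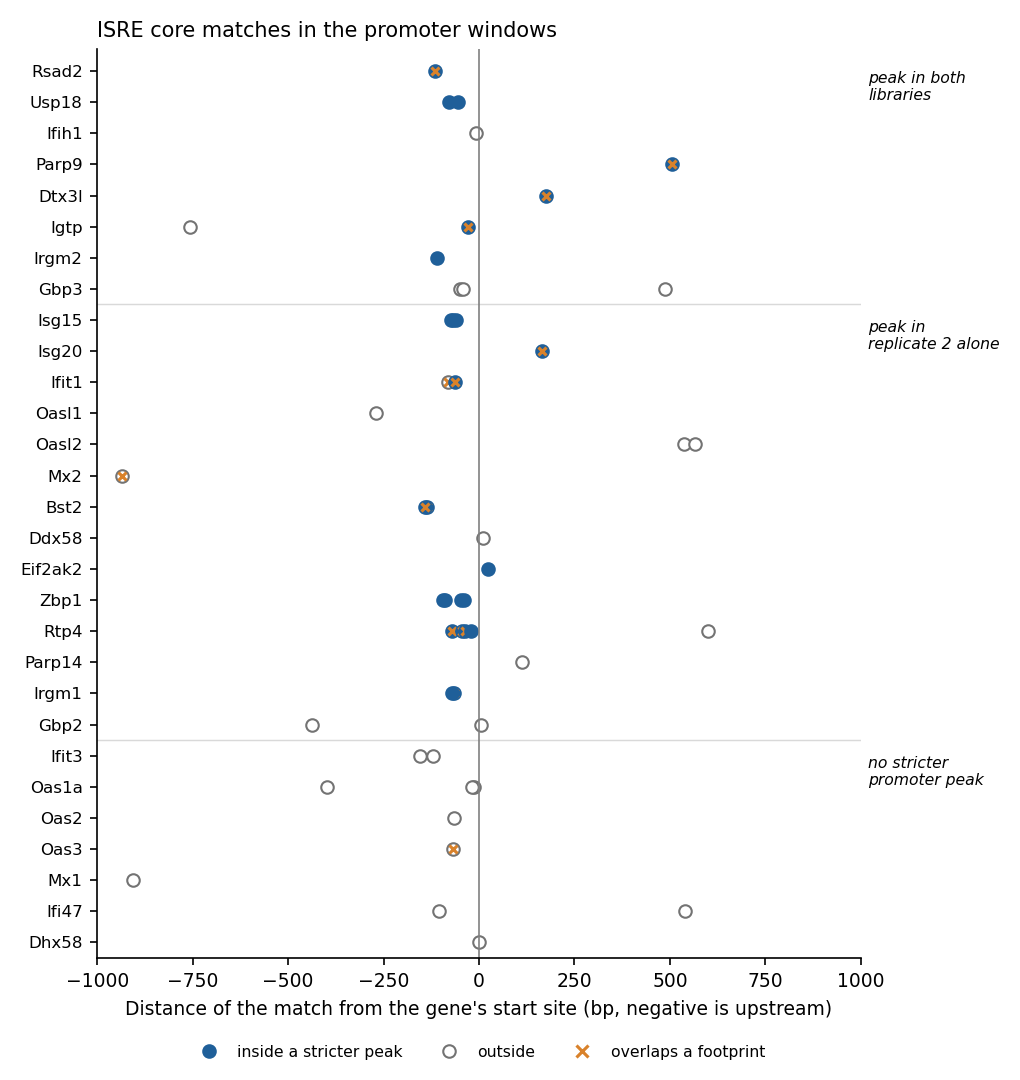
Position of each ISRE core match (x, distance in bp from the main start site, negative is upstream) in the 29 members that hold one (y, grouped by promoter call); filled circles lie in a stricter peak of either library, open circles lie outside, and crosses overlap a footprint. Matches gather within 200 bp upstream (32 of 51), including in the 7 genes without a stricter promoter peak, where all circles are open.

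The Igtp and Irgm2 start sites carry nearly the same element. The 50 bases around the ISRE at -30 of Igtp and at -111 of Irgm2 were identical at 48 positions and are shown because their calls differed. The Igtp copy lay in a stricter peak in both libraries, and the Irgm2 copy in a stricter peak of replicate 2 and a permissive peak of replicate 3. Reads from such copies may be hard to assign, and how the authors treated them is not stated in the sources used here.
Igtp, chr11:58199502-58199551, plus strand: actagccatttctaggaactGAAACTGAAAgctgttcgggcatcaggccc
Irgm2, chr11:58214893-58214942, plus strand: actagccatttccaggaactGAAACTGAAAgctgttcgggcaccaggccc

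With promoters included, most loci held open chromatin. In the gene body and 10 kb either side, 32 of 35 members had a stricter region in at least 1 library, against 67.5% of all genes, and 23 had one in both, against 56.3%. Ifit3, Oas1a and Ifi44 had none in either. Outside promoter windows, 20 members had a region in either library (43.4% of all genes) and 14 in both (21.3%). The loci held 86 distinct regions, of which 31 were in both libraries, 55 in replicate 2 alone and none in replicate 3 alone. Of the 86, 47 overlapped a promoter window (34 of a member, 13 of other genes only), 2 lay in exons, 18 in introns and 19 between genes.

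Several members with a weak or missing promoter peak had a stronger distal one. Oas3, with no stricter promoter peak, had a region in an intron 1911 bp downstream of its start at chr5:120775541-120775960, with 3.33 in replicate 2 and 2.53 in replicate 3. Oas2 had an intronic region of 1.20 and 1.99. Dhx58 had an exonic region near the end of the gene at chr11:100695021-100695220, with 2.38 and 2.89. Thus 3 of the 8 members without a stricter promoter peak had, inside the gene, a region called in both libraries. The same share over all genes without a promoter peak was not computed, so this count has no background beside it.

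Ifit2 had a region upstream (centred at -2540) at chr19:34548081-34548260, with 3.89 in replicate 2 and 3.03 in replicate 3, above its promoter peak in both. Oasl1 had one centred at -1210 (2.06 and 1.85), which also falls within the flank of Oasl2. Oasl2 had an intronic region of 1.12 and 1.72. Parp14 had a region centred at -3076 (1.83 and 1.67) and Irgm2 one 10792 bp downstream of its start (2.19 and 3.12). In each of these genes the distal region was called in both libraries, whereas the promoter at the gene's own main start was called in both only for Ifit2.

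A cluster of regions called in both libraries lay beyond the end of Irgm1 on chromosome 11. From chr11:48853481-48853720 to chr11:48856821-48857100, 4 regions were called in both libraries. Their signals were 6.68, 4.98, 9.29 and 4.63 in replicate 2 and 4.97, 4.79, 5.74 and 4.74 in replicate 3. All exceeded the Irgm1 promoter (1.59, replicate 2 alone). The outermost is nearest to the start of Trim7 and the other 3 to that of Irgm1. The strongest region in any member's flank, with 57.4 and 50.6, lay in an intron of Kpna1 in the flank of Parp9 and is nearest to the start of Kpna1, not of a member.

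The ISRE core was concentrated in the promoter regions. It was found in 13 of the 34 open regions at members' promoters (38.2%), against 2.16% of the 16454 open promoter regions of the genome. In distal regions of the members' loci it was found in 3 of 39 (7.69%), against 2.55% of 21794. Of these, the region downstream of Usp18 was in both libraries (1.63 and 1.49). The Irgm1 cluster, the Ifit2 upstream region and the Oas3 intron region held no match.

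Lists of other genes of the interferon pathway hold few genes each, and no difference between them was tested. Their counts stand beside the same background as above, 40.9% of all genes called in both libraries and 9.63% in replicate 2 alone. Of the transcription factors, 8 of 9 had a stricter promoter peak in both libraries. Stat2 and Irf9, chosen for their role in ISGF3, had 4.15 and 3.30 (Stat2) and 7.56 and 5.06 (Irf9) in replicates 2 and 3. Irf1 had 8.08 and 7.81. Irf5 had no stricter promoter peak in either library, and a permissive one of 0.545 in replicate 2.

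Of the receptors and their kinases, 5 of 9 were called in both libraries and 3 in replicate 2 alone. Ifnar1 had 7.89 and 8.72, Ifngr1 had 7.98 and 8.90, and Jak1 had 6.27 and 6.32. Ifnlr1, a subunit of the type III receptor, had no stricter promoter peak in either library, and a permissive one of 0.545 in replicate 2. Of the 6 inhibitors, 5 were called in both libraries, among them Socs1, which blocks Jak kinases, with 9.55 in replicate 2 and 9.67 in replicate 3. Upstream adaptors and kinases were called in both for 4 of 9 measured, a share near the background, among them Mavs (4.46 and 4.70) and Tbk1 (3.94 and 4.25). None of the 10 interferon genes themselves had a promoter peak in either library.

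A further 29 interferon-induced genes outside the list of members resembled it in their calls. Of these, 7 were called in both libraries, 14 in replicate 2 alone and 8 in neither, with a median signal of 1.35 in replicate 2 among the 21 called. The corresponding counts for the members were 11, 16 and 8 of 35 and a median of 1.34. Psmb9 and Tap1, antigen-processing genes that share a promoter, had 8.48 and 7.90, above every member. Trim25, a ubiquitin ligase gene of the RIG-I pathway, had 3.12 and 4.65. Cxcl9, Gbp5, Gbp6 and Ifi27l2a, the first by alphabet of those without one, had no stricter promoter peak in either library. Whether these lists differ from the members was not tested.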

How the data were processed

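Each library came with 2 peak lists, a list of false discovery rates and a list of footprints on mm10, made from that library's own alignments per the notes deposited with it. No aligner or caller is given in the sources used here. Signal per peak, as deposited by the authors, has no stated scaling: all values below 2 in the stricter lists (25650 and 4539) were whole multiples of 1 step within 0.05 of a step, which would be 1.34e+08 and 2.21e+07 tags if scaled to 1e+06. False discovery rates (q-values), as deposited, are listed only up to 0.05. Footprint lists hold 1 constant, 0.01, so only the intervals were used.

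Genes and start sites came from GENCODE M21 basic, and sequence from RefSeq's GRCm38.p6, read by coordinates. Peaks, windows and footprints overlapped at 1 bp or more. A motif lay in a peak when the peak held all of it. Regions are stricter peaks of both libraries merged. The main start site is that of the principal transcript.

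The members and all lists were chosen with earlier results of these data known. There was 1 group of 2 libraries, so no test was made, and counts and medians stand beside those of all protein-coding genes. All members were named; of the other lists, up to 4 genes of highest signal rank and up to 4, by alphabet, without a promoter peak. Trac and Mb21d1 had no match by symbol. 1 gene of the transcription factor list is not reported here by name. Alternatives changed the list, window, start sites, number of peaks, flank, motif and libraries. The overlap and motif code was tested on simulated data. Python 3.11.15, numpy 2.4.6, pysam 0.24.0 and matplotlib 3.10.9 were used.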

Additional observations from a re-analysis of the deposited data

How the results depend on the processing

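The count of members with a promoter peak in both libraries was 11. It was 16 with the permissive lists (45.5% of all genes), 13 with 2000 bp windows (41.9%), 10 with 1 start site per gene (39.2%) and, chosen after seeing the data, 9 with shared promoters counted once. It was 11 with 500 bp windows (39.8%), with as many strongest peaks of replicate 2 as replicate 3 had (38.6%), and with 50% of the peak required inside the window. Each library alone gave 11 to 27. The median over those members of the mean signal of both libraries was 2.84, against 3.32 with the signals of all promoter peaks summed and 2.41 with the permissive lists. Locus regions in both libraries numbered 31, against 14 in gene bodies alone, 48 with 20 kb flanks, 47 with the permissive lists and 24 nearest to a member's start. Each library alone gave 31 to 86 regions. Footprints in both libraries' promoters were found for 10 members (10 to 28 by library). A false discovery rate of at most 0.001 in both was found for 13 (13 to 27 by library). ISRE matches were found in 29 members, against 7 (all genes 0.935%) with a longer core of 1 more NN-GAAA repeat, 19 with GAS, 21 in the shorter window and 35 (all genes 95.2%) with 1 mismatch. The 12 matches in a stricter peak and a footprint became 13 with either alternative. The cause of these changes was not tested beyond what each setting alters by construction. No paired analysis was possible because there is only 1 group.

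Replicate 3 limits all counts over both libraries, since its 11 called members were all called in replicate 2. The weakest called member had 31 steps there and 65 in replicate 2. Sequences are those of the C57BL/6 reference, and the mice also carry the other parent's alleles.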
